A study of Homo sapiens with 4 samples.

Results

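Neuroectoderm is the embryonic layer that gives rise to the nervous system, and the eye field is the patch of anterior neural plate from which both retinas form. The 9 genes described here encode transcription factors of these tissues: SOX1, SOX3, SIX3, SIX6, PAX6, OTX2, RAX, LHX2 and ZIC1. They were taken by symbol from a table of read counts for 59050 genes, and all 9 were kept whatever their counts. In embryos and in cultured stem cells neural fate is favoured where bone morphogenetic protein and Nodal signals are low. SOX1 and SOX3 then mark neural progenitors, and OTX2, RAX, SIX3, SIX6, LHX2 and PAX6 are used together to recognise the eye field. OTX2, SOX3 and the ZIC factors are also known from primed pluripotent cells, before any lineage is chosen.

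The study measured RNA in HUES8, an established human embryonic stem cell line, grown undifferentiated in mTeSR1 medium on a Matrigel coating. Of 4 libraries, 2 are labelled with the genotype WT and 2 with the genotype CPT2 KO, and all 4 carry the same treatment label. CPT2 is the mitochondrial enzyme that passes long-chain fatty acyl groups from carnitine to coenzyme A. The title places the work in the formation of definitive endoderm. The labels do not say how the knockout was made, whether it is 1 clone, or whether replicates are separate cultures, so p-values rest on the variation among the 4 libraries, possibly technical only.

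Library totals ranged from 16887789 to 20460031 counts, so that 1 count equalled 0.0485 to 0.0603 CPM (counts divided by a scaled library size). CPT2 RNA itself was higher under the KO label, with 52 and 72 counts in the WT-labelled libraries and 233 and 170 in the KO-labelled ones. Gene-level RNA counts do not measure whether the CPT2 protein was lost, so the labels were not tested. Groups are called WT-labelled and KO-labelled throughout. WT-labelled replicate 1 stood apart: its counts differed from those of WT-labelled replicate 2 with a chi-square of 43.8 per degree of freedom, as against 13.5 and 13.7 between that replicate 2 and the KO-labelled libraries. Mitochondrial genes took 4.15% of its counts and 7.21% to 7.84% of those of the other 3. All 12 pluripotent stem cell markers were detected, with summed levels of 10553 and 11195 CPM in the WT-labelled libraries and 10947 and 12270 CPM in the KO-labelled ones. Among them ZFP42, a marker of the undifferentiated state, rose from 85.8 and 102 CPM to 178 and 191 CPM (log2 fold change 0.98, with an adjusted p of 0.0164 in edgeR), and its part in the results on the 9 genes was not tested. The other 11 markers were not called. Over all 12 the median log2 fold change was 0.13, with 8 values above 0 and 4 below. RCVRN, a retinal marker, had 0 counts in all 4. Surface ectoderm markers summed to between 0.542 and 1.29 CPM over 6 genes, with KRT5 at 0 counts.

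SOX1 and SIX6 had the lowest fold changes of the members, and their exons overlap no other gene in GENCODE 29. SOX1 is found on chromosome 13, at 112067647 to 112070488 (GRCh38, plus strand) and SIX6 on chromosome 14 at 60508951 to 60512850 (plus strand). SOX3 is on chromosome X at 140502985 to 140505116 (minus strand), and ZIC1 on chromosome 3 at 147393422 to 147510293 (plus strand). SIX3 is on chromosome 2 at 44941898 to 44946077 (plus), PAX6 on chromosome 11 at 31784779 to 31818062 (minus), OTX2 on chromosome 14 at 56799905 to 56810479 (minus), RAX on chromosome 18 at 59267035 to 59274086 (minus) and LHX2 on chromosome 9 at 124001670 to 124033301 (plus). To show the DNA ahead of these genes, the sequence upstream of the RefSeq start is printed for both genes that fell, for SOX3 and, for contrast, for ZIC1, the most abundant member. Sequences are from the RefSeq promoter table of GRCh38.p14, with CpG dinucleotides in capitals. Bases that GENCODE 29 counts as exon were left out, so that the SOX3 sequence ends 47 bases and the SIX6 sequence 195 bases before the RefSeq start.
SOX1 (chr13:112066899-112067148, plus strand): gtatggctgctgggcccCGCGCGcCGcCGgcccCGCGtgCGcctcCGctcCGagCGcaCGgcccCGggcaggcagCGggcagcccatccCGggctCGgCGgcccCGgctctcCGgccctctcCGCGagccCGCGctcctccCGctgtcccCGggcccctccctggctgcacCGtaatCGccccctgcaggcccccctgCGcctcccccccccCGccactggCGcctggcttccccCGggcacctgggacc
SIX6 (chr14:60508896-60508950, plus strand): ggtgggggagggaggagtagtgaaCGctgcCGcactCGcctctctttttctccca
SOX3 (chrX:140505117-140505319, minus strand): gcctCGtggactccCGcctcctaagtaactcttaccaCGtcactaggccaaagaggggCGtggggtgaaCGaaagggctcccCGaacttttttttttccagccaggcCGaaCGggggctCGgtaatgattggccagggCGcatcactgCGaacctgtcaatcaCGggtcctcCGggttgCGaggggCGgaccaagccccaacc
ZIC1 (chr3:147409115-147409364, plus strand): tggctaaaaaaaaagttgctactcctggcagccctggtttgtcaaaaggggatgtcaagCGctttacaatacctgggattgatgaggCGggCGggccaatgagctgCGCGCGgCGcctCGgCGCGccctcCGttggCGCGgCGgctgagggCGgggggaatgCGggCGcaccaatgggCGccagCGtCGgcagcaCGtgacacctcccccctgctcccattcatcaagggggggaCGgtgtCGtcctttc

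Over the full 250 bases before the start, SOX1 held 31 CpG dinucleotides at a GC content of 82%, above 89.1% and 98.3% of the 35116 windows in the table. ZIC1 held 23 CpG, SOX3 17 and SIX6 16, against a median of 11 over all windows. The 2 genes that fell thus did not share a CpG density: SOX1 stood near the top of the range and SIX6 at the 59th percentile. Of the 9 members, 8 had a window, and both windows of OTX2 lay below the median, with 7 and 4 CpG. A search of both strands covered 8 short motifs: the CCAAT box (CCAAT), the GC box (GGGCGG), the TATA box (TATAAA), a SOX core (ACAAAG), the octamer (ATGCAAAT), a homeodomain core (TAATTA), a bicoid-type site (TAATCC) and the SMAD box (CAGAC). None of the 8 was found in the SOX1 window. ZIC1 held CCAAT at 2 places and SOX3 at 1, as do 32% of all windows at least once. SIX6 had 2 matches to the CCAAT box, 1 to the GC box and 1 to the SMAD box, each ending in the exonic bases that are not printed. ZIC1 held the GC box at 2 places and SOX3 at 1. The GC box occurs in 42.6% of windows and the SMAD box in 38%. No matches overlapped one another in these 4 windows.

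Genes can be ranked only per length, so levels were divided by kilobases of gene length. In the WT-labelled libraries the order was ZIC1 at 17.0 ± 1.24 CPM per kilobase (SD, n = 2 here and below), SOX3 at 12.0 ± 4.96, SIX3 at 8.18 ± 0.557, OTX2 at 2.09 ± 1.49, SOX1 at 1.89 ± 0.464 and SIX6 at 0.817 ± 0.495. PAX6 followed at 0.0344 ± 0.0220 and RAX at 0.0218 ± 0.0309, and LHX2 had no count. Neighbours whose library values overlapped in this order were SOX3 and SIX3, OTX2 and SOX1, and PAX6 and RAX. In the KO-labelled libraries the order was ZIC1 (12.6 ± 1.65), SIX3 (6.78 ± 0.0196), OTX2 (4.88 ± 2.29), SOX3 (4.56 ± 0.704), SOX1 (0.184 ± 0.110), LHX2 (0.0780 ± 0.0262), PAX6 (0.0655 ± 0.0431), SIX6 (0.0286 ± 0.00983) and RAX (0.00664 ± 0.00940). There OTX2 and SOX3 overlapped, as did LHX2 and PAX6, and PAX6 and SIX6. The level of PAX6 is understated on this scale, since the table gives the gene 20639 bases of exon. SIX6 stood in the sixth place in the first order and in the eighth in the other, and the places of SOX3, SIX3 and OTX2 rest on values that overlap.

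**Figure D1:**
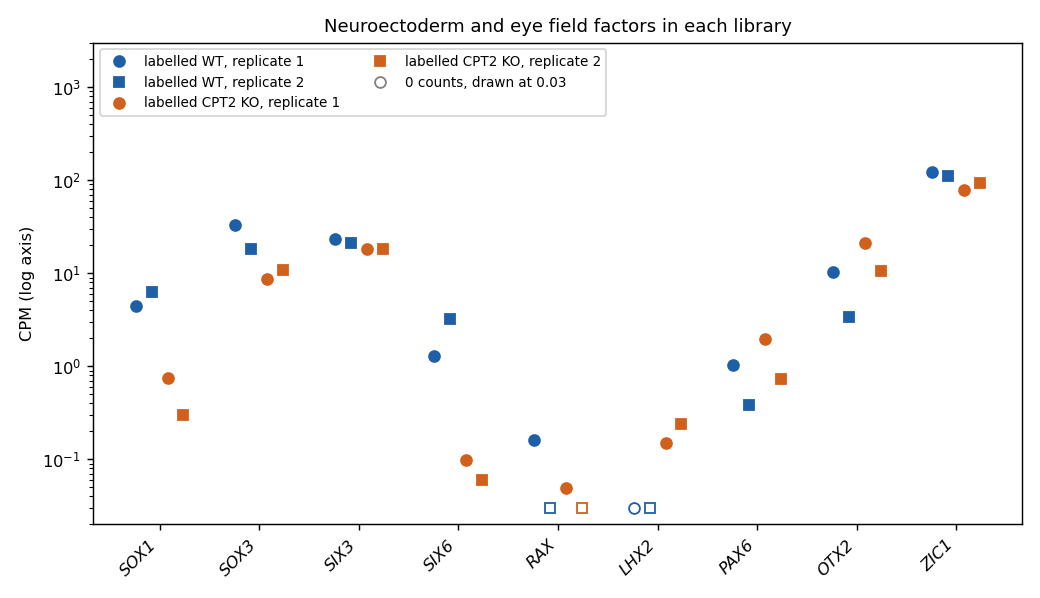
Level of each of the 9 factors in each library, in CPM on a log axis, with blue points for libraries labelled WT, orange for the KO-labelled ones, circles for replicate 1 and squares for replicate 2; open points are libraries with 0 counts. For SOX1 and SIX6 both orange points lie below both blue ones by a wide margin, while for PAX6 and OTX2 the replicates of a group lie far apart.

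Of the 9 members, 7 had enough counts for a test, and RAX and LHX2 did not. SOX1 and SIX6 fell in the KO-labelled libraries and no member rose, by the quasi-likelihood test of edgeR at an adjusted p of 0.05. None was called higher by DESeq2 or limma-voom, and none above 0 had an unadjusted p under 0.05 in edgeR. Among all 17564 tested genes, 0.0569% were called lower and 0.359% higher by the same rule. At an unadjusted p under 0.05, 4 of the 7 would pass, with ZIC1 and SOX3 joining SOX1 and SIX6, all 4 of them lower, as were 4.16% of all tested genes by that rule. Of the log2 fold changes 5 lay below 0 and 2 above, with a median of -0.43 against 0.0017 over all tested genes. Both KO-labelled libraries lay below both labelled WT for 5 of the 7, as they did for 19.8% of all tested genes, and above them for 1, OTX2, as for 21.1% of genes. SIX6 passed the filter on low counts through its WT-labelled libraries alone. SOX1 reached the cutoff in only 1 KO-labelled library, so it too relied on the WT-labelled ones. The members were also chosen with earlier results of these data known. These counts and the median therefore lend no support of their own.

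SOX1 belongs to the SOX B1 group of high mobility group box factors and is among the earliest markers of committed neural plate. It had 82 and 130 counts in the WT-labelled libraries and 15 and 5 in KO-labelled replicates 1 and 2, or 4.44, 6.31, 0.742 and 0.301 CPM. Both KO-labelled libraries lay below both others, and they differed from each other by 2.46-fold. The fall was 9.87-fold (log2 fold change -3.30, SE 0.48, 95% interval -4.37 to -2.24, edgeR adjusted p = 0.0164), the sixth lowest fold change of all tested genes. Counting error alone allows a ratio of 6.31 to 16.7. SOX1 passed the filter on low counts through the WT-labelled libraries, since 1 KO-labelled library reached it. The call was lost without KO-labelled replicate 2 (log2 fold change -2.85, with an adjusted p of 0.0532 in edgeR), a fit that called 0.0114% of all genes lower.

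SIX6, a homeodomain factor of the optic vesicle, pituitary and hypothalamus, had 24 and 67 counts in the WT-labelled libraries and 2 and 1 in the KO-labelled ones. These are 1.30 and 3.25 CPM against 0.0990 and 0.0603 CPM, so that the groups did not overlap, while the WT-labelled libraries differed from each other by 2.50-fold. The ratio of the group means was 28.6, with a counting interval of 9.48 to 141. The fitted log2 fold change was -4.72 (SE 0.86, 95% interval -6.59 to -2.85, edgeR adjusted p = 0.0382), the lowest of all tested genes. SIX6 passed the filter through its WT-labelled libraries alone, so it could be tested only as a gene that is high there. Its call was lost without KO-labelled replicate 1 or 2 (edgeR adjusted p = 0.226 and 0.178, with 0.0114% of all genes called lower in each fit). It was also lost with limma-voom (adjusted p = 0.128), where 0.0399% were called lower.

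SIX3, the closest relative of SIX6 and a repressor of Wnt signalling in the forebrain, had 429 and 435 counts in the WT-labelled libraries and 371 and 306 in the KO-labelled ones. At 23.3, 21.1, 18.4 and 18.4 CPM it was the steadiest of the tested members between replicates. Its log2 fold change was -0.27 (SE 0.18, 95% interval -0.67 to 0.13, edgeR adjusted p = 0.676). Although the groups did not overlap, the interval includes 0 and excludes a fall of the size fitted for SIX6. SIX3-AS1, transcribed from the opposite strand 25 bases away, had 1 and 9 counts against 12 and 8, and was too low to test.

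SOX3, the X-linked member of SOX B1 and a factor of the early neural plate and the hypothalamus, had 609 and 372 counts in the WT-labelled libraries and 175 and 179 in the KO-labelled ones. WT-labelled replicate 1 was highest at 33.0 CPM, replicate 2 stood at 18.1 CPM, and the KO-labelled libraries stood at 8.66 and 10.8 CPM. The log2 fold change was -1.39 (SE 0.29, 95% interval -2.04 to -0.75) and was not called (edgeR adjusted p = 0.107). It was called with DESeq2 (adjusted p = 0.00111), a tool that called 0.262% of all tested genes lower, and without WT-labelled replicate 2, where 3.84% were called lower. Without WT-labelled replicate 1, the library that stood apart, the log2 fold change was -0.90 (edgeR adjusted p = 0.0855).

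ZIC1, a zinc finger factor of the dorsal neural tube, was the most abundant member on both scales, with 2255 and 2271 counts in the WT-labelled libraries and 1582 and 1564 in the KO-labelled ones. It took between 60.4% and 69.6% of all counts of the 9 genes in each library. Its levels were 122, 110, 78.3 and 94.2 CPM, so that the groups did not overlap. The log2 fold change was -0.43 (SE 0.15, 95% interval -0.76 to -0.10), which leaves out 0 before adjustment and did not pass after it (edgeR adjusted p = 0.410). ZIC4 on the opposite strand covers 2.59% of the exonic bases of ZIC1, and its own log2 fold change was -0.65 (edgeR adjusted p = 0.598).

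OTX2, a homeodomain factor that sets up forebrain and midbrain and is also made in primed stem cells and anterior endoderm, lay on the other side of 0. It had 190 and 70 counts in the WT-labelled libraries and 430 and 177 in the KO-labelled ones, or 10.3, 3.40, 21.3 and 10.7 CPM. Both KO-labelled libraries were higher, but replicate 2 of that group exceeded WT-labelled replicate 1 by a small margin, and replicate 1 was 3.03-fold above replicate 2 within the group labelled WT. The log2 fold change was 1.25 (SE 0.62, 95% interval -0.41 to 2.91, edgeR adjusted p = 0.626). It was 2.25 and was called without WT-labelled replicate 1 (edgeR adjusted p = 0.00288), where 0.643% of all tested genes were called higher, and 0.65 without replicate 2 of that group or without KO-labelled replicate 1.

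PAX6, the paired-box factor required for the eye, had 19 and 8 counts in the WT-labelled libraries and 40 and 12 in the KO-labelled ones. At 1.03, 0.388, 1.98 and 0.723 CPM the groups overlapped. The log2 fold change was 1.01 (SE 0.65, 95% interval -0.44 to 2.45, edgeR adjusted p = 0.664), and without KO-labelled replicate 1 it was 0.053. Exons of ELP4 on the opposite strand cover 25.2% of the exonic bases of PAX6, and PAUPAR, a noncoding RNA on that strand, covers 0.918%. PAUPAR had 0 counts in both WT-labelled libraries and 22 and 4 in KO-labelled replicates 1 and 2. ELP4 had 402, 415, 444 and 227 counts, so the assignment of reads among these genes is uncertain.

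RAX, which heads the eye field programme, had 3 and 0 counts in the WT-labelled libraries and 1 and 0 in the KO-labelled ones. LHX2, a LIM homeodomain factor needed for the optic cup, had 0 and 0 counts against 3 and 4. For RAX the counting interval of the ratio, KO-labelled over WT-labelled, ran from 0.00674 to 4.41, so a difference was not detectable at this depth. For LHX2 the lower end of that interval was 1.53, but no fold change is given, since its counts lie at or within 1 count of the floor. The floor is the 3 counts that a count of 0 allows, which is 0.146 to 0.181 CPM in these libraries.

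**Figure D2:**
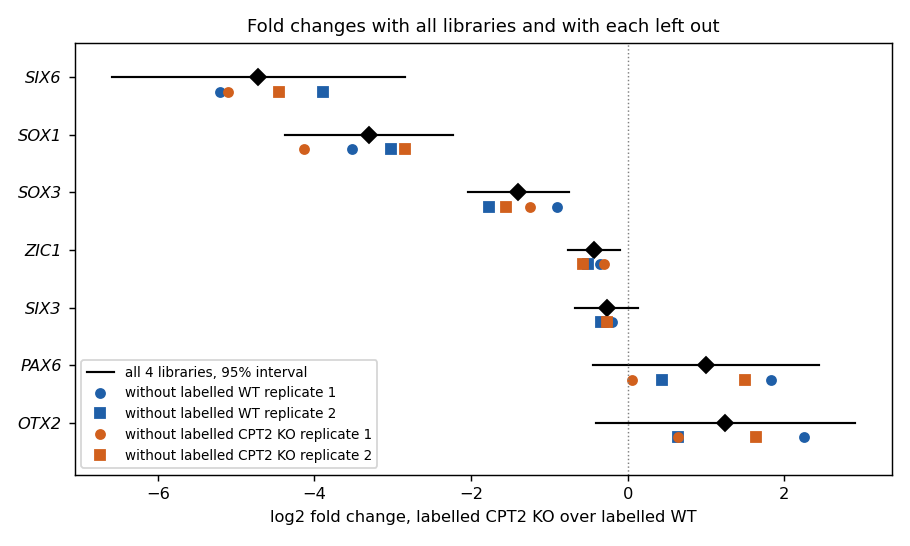
Log2 fold change of each tested factor, labelled CPT2 KO over labelled WT; diamonds and lines give the value and 95% interval from all 4 libraries, and the smaller points give the value with 1 library left out. The values of SIX6, SOX1, SOX3, ZIC1 and SIX3 stay below 0 in every setting drawn, and SIX3, PAX6 and OTX2 have intervals that include 0.

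In the libraries as a whole, the 9 genes summed to 196 and 163 CPM in WT-labelled replicates 1 and 2 and to 130 and 135 CPM in the KO-labelled ones. Without ZIC1 the sums were 73.5 and 52.5 CPM against 51.3 and 41.2 CPM, with a smaller gap between the groups than between the WT-labelled libraries. The profiles of SOX1 and SIX6 over the 4 libraries lay at a distance of 0.839 between centred log2 CPM values, those of PAX6 and OTX2 at 0.629 and those of SIX3 and ZIC1 at 0.249, the shortest of any pair of tested members. SOX1 and SIX6 both stood lower in replicate 1 than in replicate 2 of the WT-labelled pair, and higher in replicate 1 than in replicate 2 of the KO-labelled pair. PAX6 and OTX2 were higher in replicate 1 than in replicate 2 in both groups.

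**Figure D3:**
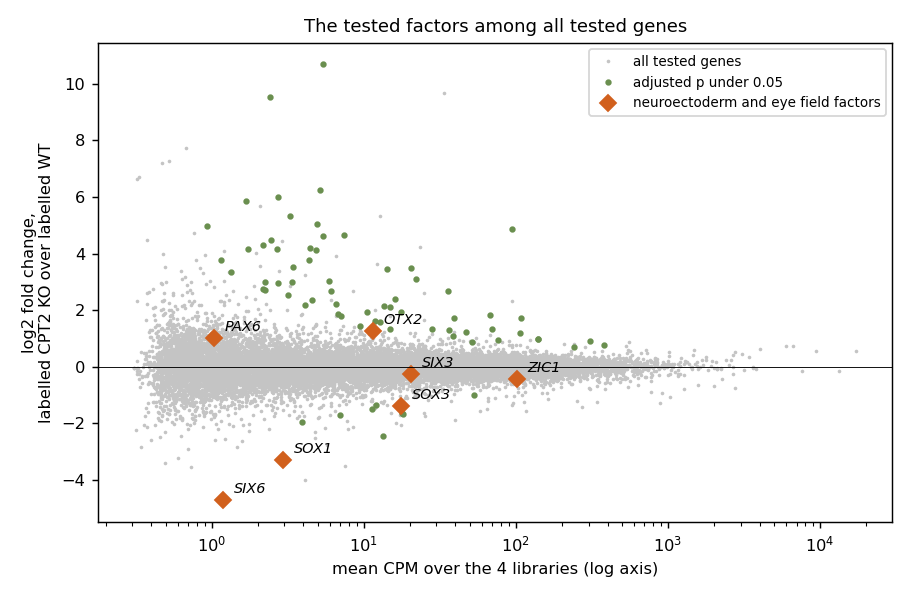
Log2 fold change, labelled CPT2 KO over labelled WT, against mean CPM over the 4 libraries on a log axis, for all 17564 tested genes (grey), called genes (green) and the 7 tested factors (orange). SIX6 has the lowest fold change drawn and SOX1 the sixth lowest, and ZIC1, at 101 CPM, lies near 0.

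Among 23 relatives from the same gene families, 15 were tested, and PAX7, a paired-box factor of dorsal neural tube and neural crest, was the only one called. By the same rule, 0.0569% of all tested genes were called lower. PAX7 had 404 and 485 counts in the WT-labelled libraries and 89 and 66 in the KO-labelled ones (log2 fold change -2.43 with an SE of 0.22, adjusted p = 0.000936 in edgeR). The median over the 15 was -0.15. At an unadjusted p under 0.05 in edgeR, 3 were lower and 0 higher, beside 4.16% of all tested genes lower by that rule. SOX2, the SOX B1 factor of both stem cells and neural progenitors, stood at 245, 236, 265 and 255 CPM, and had a log2 fold change of 0.11 (95% interval -0.17 to 0.39, with an adjusted p of 0.813 in edgeR). That interval lies above the intervals of SOX1 and SOX3. Per kilobase, SOX2 made up 85.1% and 89.8% of the SOX B1 total in the WT-labelled libraries and 96.1% and 95.2% in the KO-labelled ones, and SOX3 13.5% and 8.09% against 3.71% and 4.75%. The share of SOX1 was 1.37% and 2.12% against 0.238% and 0.0994%, while the total ranged from 105 to 115 CPM per kilobase.

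ZIC2, a relative of ZIC1 that is abundant in stem cells, had a log2 fold change of -0.15 (with an adjusted p of 0.742 in edgeR). It stood at 298 and 261 CPM against 256 and 246 CPM, further apart within the first pair than between the groups. Beside SIX3 and SIX6, their relative SIX4 had 1099 and 1086 counts against 1169 and 1130 (log2 fold change 0.17, with an adjusted p of 0.766 in edgeR). SIX5, another relative, was lower, at 151 and 97 counts against 79 and 37 (log2 fold change -1.04, with an adjusted p of 0.442 in edgeR). The 95% intervals of SIX3 and SIX4 lie above that of SIX6. OTX1, the paralogue of OTX2, had 1 count in replicate 1 of each group and 0 in the others.

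**Figure D4:**
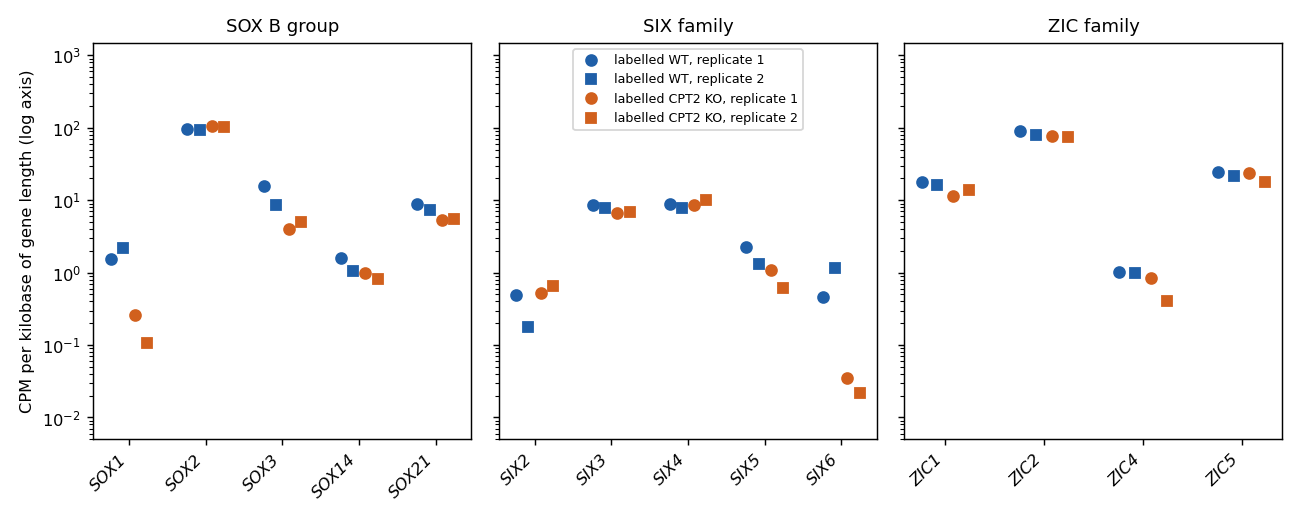
Level per kilobase of gene length, on a log axis, of genes of the SOX B group, of SIX2 to SIX6 and of ZIC1, ZIC2, ZIC4 and ZIC5 in each library, with colours and shapes as labelled. SOX2, SIX4 and ZIC2 lie at nearly the same height in all 4 libraries, and SOX1 and SIX6 lie lower in both KO-labelled libraries.

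Other genes of the anterior neural plate and optic tissue gave 17 tested genes of 30, with a median of 0.058. TBX3 and FGF8 were called higher and none lower in edgeR, beside 0.359% and 0.0569% of all tested genes. DESeq2 called 1 lower, beside 0.262% of all tested genes. At an unadjusted p under 0.05, 4 were lower, beside 4.16% of all tested genes. TBX3 and FGF8 are also expressed outside neural tissue, TBX3 in naive stem cells and FGF8 in the primitive streak. TBX3 had 109 and 89 counts against 283 and 227 (log2 fold change 1.44, with an adjusted p of 0.0396 in edgeR), and its call was lost without either KO-labelled library. SFRP1, a secreted Wnt antagonist of the anterior neural plate, stood at 219, 194, 145 and 139 CPM (log2 fold change -0.54, with an adjusted p of 0.181 in edgeR). SP8, a zinc finger factor of the anterior neural ridge, had a log2 fold change of -0.28 (with an adjusted p of 0.568 in edgeR). In this list NR2E1, VAX1, TBX2 and EMX2 had no count in any library.

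General neural progenitor and neuron genes gave no edgeR call among 26 tested of 39, with a median of -0.10 and 16 fold changes below 0. At an unadjusted p under 0.05, 3 were lower, beside 4.16% of all tested genes, and 2 were higher. DESeq2 called 1 in each direction, beside 0.262% of all tested genes lower. The 4 most abundant were SOX4 (log2 fold change -0.17), NES (0.36), SOX11 (-0.047) and CDH2 (0.18), with edgeR adjusted p between 0.465 and 0.945. NES, the intermediate filament of neural progenitors, stood at 277 and 295 CPM in the WT-labelled libraries and at 398 and 337 CPM in the KO-labelled ones. POU3F3 had no counts, and HES5, a Notch target of neural progenitors, had 2 counts in 1 library.

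Among ligands and antagonists that govern neural induction, 25 of 28 were tested. Of these, 6 were called higher and none lower in edgeR, beside 0.359% and 0.0569% of all tested genes. At an unadjusted p under 0.05, 15 were higher and 1 lower, beside 4.16% of all tested genes lower by that rule. DESeq2 called 10 higher and none lower, beside 149 higher and 0.262% lower among all 17564 tested genes. The median log2 fold change was 0.81, with 20 values above 0. NODAL, the ligand that holds cells in a mesendoderm-competent state, had 50 and 82 counts in the WT-labelled libraries and 882 and 528 in the KO-labelled ones (log2 fold change 3.49, with an adjusted p of 0.000416 in edgeR). The Nodal antagonists LEFTY1 and LEFTY2, FGF8 and the Wnt ligands WNT3 and WNT8A were the other 5. WNT8A, at 1 and 1 counts, compared with 47 and 21, gave a ratio of 35.0 with a counting interval of 9.61 to 304 (edgeR adjusted p = 0.0219). Its call was lost with limma-voom (adjusted p = 0.0654) and without KO-labelled replicate 1 (0.113 in edgeR), and that of WNT3 without the same library (0.0549 in edgeR). WNT8A, FGF8 and LEFTY2 passed the filter on low counts through the KO-labelled libraries alone, so they could be tested only as genes that are high there. LEFTY1 stood at 0.379 and 0.631 CPM in the WT-labelled libraries, beside a cutoff of about 0.518 CPM, so it too relied on the KO-labelled ones. The count of higher calls therefore lends no support of its own. NOG and CHRD, 2 of the listed antagonists of bone morphogenetic proteins, had log2 fold changes of -1.70 and 0.012 (with an adjusted p of 0.724 and 0.996 in edgeR). NOG had 67 and 8 counts against 20 and 2. FST, another listed antagonist, lay above 0, at 263 and 325 counts against 621 and 359 (log2 fold change 0.81, with an adjusted p of 0.221 in edgeR). FGF8 is also in the anterior neural plate list, so its call counts in both. This direction of the Nodal genes was known when the list was drawn up.

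**Figure D5:**
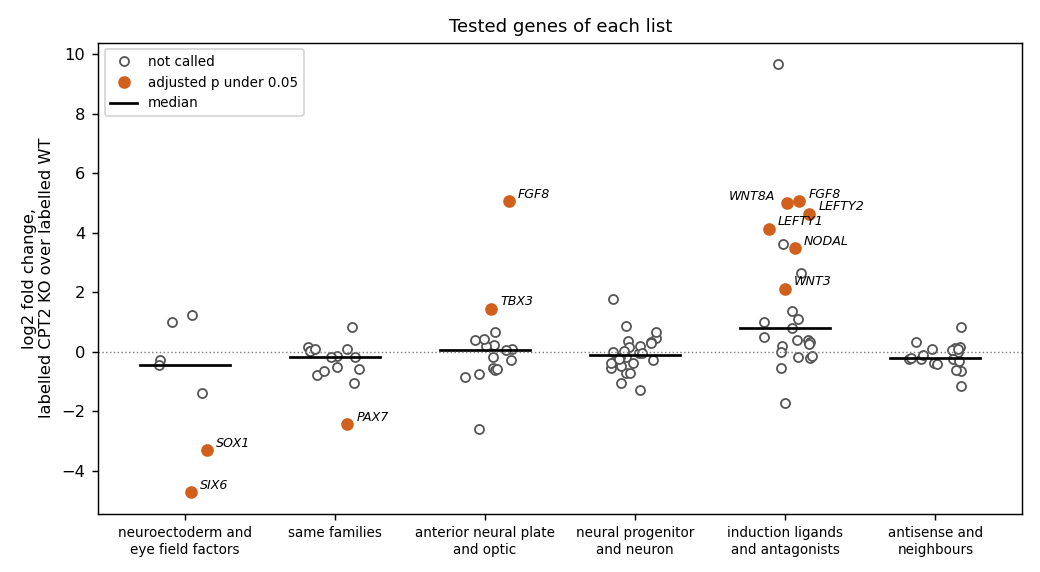
Log2 fold change of every tested gene in the 9 factors and in the related lists, labelled CPT2 KO over labelled WT, with called genes filled and named and the median as a bar. Filled points lie below 0 for the factors and their families and above 0 for the anterior neural plate list and the induction list.

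Of the markers of other cell types, the mesendoderm and endoderm list of 10 summed to 7.48 and 5.44 CPM in the WT-labelled libraries and to 269 and 45.7 CPM in KO-labelled replicates 1 and 2, with all 8 tested fold changes above 0, a median of 4.16 and no call in edgeR. An unadjusted p under 0.05 was reached by 6 of them, and DESeq2 called 6 higher, beside 149 of all 17564 tested genes. None of the 10 was at 0 in the KO-labelled libraries, and SOX17 and GATA6 were at 0 in both WT-labelled libraries. CER1, at 3 and 0 counts in the WT-labelled libraries, passed the filter on low counts through the KO-labelled ones alone. Such genes could be tested only as genes that are high there, so the shared direction of these fold changes lends no support of its own. Neural crest markers summed to 42.9 and 42.6 CPM against 18.9 and 17.8 CPM over 6 genes, of which PAX7 alone was called and made up 21.9 and 23.5 CPM against 4.41 and 3.98 CPM, while PAX3 and TFAP2B had at most 2 counts. The part of these markers in the lower SOX1 and SIX6 was not tested, and in bulk RNA fewer cells of a type cannot be told apart from less RNA per cell.

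Genes around the members gave no call in edgeR, DESeq2 or limma-voom. At an unadjusted p under 0.05 in edgeR, 3 were lower, beside 4.16% of all tested genes. Of 33 listed antisense and neighbouring genes, 31 were in the table and 19 were tested, with a median log2 fold change of -0.19. The list includes SOX2-OT and OTX2P1, which are far from any member, and other listed genes lie up to 621 kb away. C14orf39, on the opposite strand from SIX6 with an overlapping span, had 39 and 64 counts in the WT-labelled libraries and 23 and 21 in the KO-labelled ones (log2 fold change -1.13, with an adjusted p of 0.465 in edgeR). SOX1-OT, 36.6 kb beyond SOX1 on the same strand, had 7 and 3 counts against 3 and 2 and was too low to test. The most abundant genes of the list, EXOC5, ATP11A, RCN1 and PREPL, lie 390, 620, 273 and 580 kb from OTX2, SOX1, PAX6 and SIX3. Their log2 fold changes were 0.058, -0.40, 0.12 and -0.30 (adjusted p in edgeR between 0.478 and 0.924).

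The genes nearest to SOX1 in profile over the 4 libraries, among 15395 others with at least 1 CPM on average, were GPR85, PAX7, HOXD9, WWC2-AS2 and WDR31, at distances of 0.951 to 1.44 between centred log2 CPM values. Those nearest to SIX6 were GPR85, PAX7, LINC01410, HOXD9 and CXXC4, at 1.41 to 1.81. GPR85, PAX7 and HOXD9 were in both sets. GPR85 had 50 and 50 counts in the WT-labelled libraries and 8 and 5 in the KO-labelled ones (log2 fold change -2.84, with an adjusted p of 0.0598 in edgeR). HOXD9 had 42 and 40 counts against 8 and 5 (log2 fold change -2.55, with an adjusted p of 0.110 in edgeR). These are descriptions of 4 libraries, and SOX1 and SIX6 lay nearer to each other than to any of them.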

How the data were processed

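Per the file headers, the deposited table gives unnormalized read counts and gene lengths by symbol. Per the submitters' processing notes, the authors used HISAT2 2.1.0, an aligner, featureCounts 1.6.4, a read counter, and hg38. Not given in the sources used here are strand use, the treatment of multiply aligned reads and the annotation release. Of 59050 genes, 17564 passed filterByExpr (about 0.518 CPM in at least 2 libraries). Libraries were scaled by TMM. The test was the robust quasi-likelihood F-test in edgeR 4.0.16 (R 4.3.3) on a model with group alone. P-values were adjusted over the 17564 genes by the Benjamini-Hochberg method, with a threshold of 0.05. SE is the size of the log2 fold change over the square root of F. Intervals on count ratios are exact binomial (95%) and hold counting error alone. Profile distances are Euclidean, on centred log2 CPM with a prior count of 2.

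The members and lists were chosen with earlier results of these data known. Named are all members, CPT2, the called genes of each related list (at most 6) filled up to 4 by abundance, and the 5 nearest profiles; some listed genes are not reported here. ZIC4, SIX4, SIX5, OTX1, SIX3-AS1, SOX1-OT, C14orf39, PAUPAR, ELP4, NOG, CHRD, FST, ZFP42, CER1 and genes named for 0 counts were chosen after their values were seen. Alternatives were other scalings and filters, DESeq2 1.42.0, limma-voom (limma 3.58.1), the legacy edgeR estimate, a replicate block and each library left out. Positions are from GENCODE 29, and sequences from RefSeq. The fit was also run on simulated data. These had no library that stood apart as WT-labelled replicate 1 does, so they do not vouch for the calls given here.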

Additional observations from a re-analysis of the deposited data

How the results depend on the processing

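SOX1 was called in 11 of 12 alternatives, SIX6 in 9, SOX3 in 3 and OTX2 in 2, and PAX6, SIX3 and ZIC1 in none. The fold change of each of the 7 tested members kept its sign in all 12. Ranges on the log2 scale were -4.13 to -2.85 for SOX1, -5.21 to -3.89 for SIX6, -1.77 to -0.90 for SOX3, -0.57 to -0.30 for ZIC1, -0.34 to -0.20 for SIX3, 0.053 to 1.84 for PAX6 and 0.65 to 2.25 for OTX2. The cause of the changes was not tested.

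With limma-voom, 1 member was called lower, and with each library left out the counts of members ranged from 0 to 3 lower and from 0 to 1 higher. The 0 is without KO-labelled replicate 2 and the 3 without WT-labelled replicate 2. Over all tested genes, 10 were called lower and 63 higher. The counts were 23 and 101 with no low count filter, 46 and 149 with DESeq2, and ranged from 2 to 674 and from 31 to 531 with each library left out, the highest without WT-labelled replicate 2. With DESeq2 the anterior neural plate list had 1 lower call, the neural progenitor list 1 lower and 1 higher, and the induction list 10 higher. With each library left out, lower calls ranged from 1 to 2 in the families list, 0 to 4 in the anterior neural plate list and 0 to 2 in the progenitor, induction and neighbour lists. Higher calls ranged from 1 to 2, 0 to 1 and 6 to 10 in the anterior neural plate, progenitor and induction lists.

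The titles number the replicates, but nothing says that equal numbers share a culture or day, and the deviations of equal numbers correlated at 0.17 across 17564 genes. With the number as a replicate block, 140 genes were called lower and 233 higher, with SOX1, SIX6 and SOX3 (log2 fold change -1.35, edgeR adjusted p = 0.0303) the 3 members lower and 1, OTX2, higher (log2 fold change 1.30, edgeR adjusted p = 0.00877). The block gave 2 lower calls each in the anterior neural plate and progenitor lists, and 1 lower and 10 higher in the induction list.

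Some genes near 0 changed direction with 1 library left out, and their values then ranged from -0.18 to 0.10 for SOX11 and from -0.090 to 0.51 for CDH2, with the change in sign without WT-labelled replicate 1. For EXOC5 they ranged from -0.020 to 0.13, with -0.0061 without WT-labelled replicate 2 and -0.020 without KO-labelled replicate 1. Depth limits RAX and LHX2, which had at most 4 counts, and SIX6, with 2 and 1 counts in the KO-labelled libraries.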

Other observations

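Some neural genes outside the 9 factors are described here as values, and all were chosen after their values were seen. DACH1, a cofactor of sine oculis homeobox proteins in the eye, had 15 and 12 counts in the WT-labelled libraries and 3 and 1 in the KO-labelled ones (log2 fold change -2.60, with an adjusted p of 0.393 in edgeR). DACH1 passed the filter on low counts through the WT-labelled libraries alone, so it could be tested only as a gene that is high there. EYA1, another partner of sine oculis homeobox proteins, had 177 and 132 counts against 96 and 69 (log2 fold change -0.83, with an adjusted p of 0.431 in edgeR). POU3F1, a POU factor of the epiblast and early neural plate, stood at 14.5 and 13.0 CPM against 6.73 and 6.69 CPM (log2 fold change -1.03, with an adjusted p of 0.115 in edgeR). SOX21, which belongs to the SOX B2 group, stood at 24.6 and 20.6 CPM against 14.8 and 15.4 CPM (log2 fold change -0.58, with an adjusted p of 0.385 in edgeR). None of these 4 genes was called in edgeR. Other genes of the anterior neural plate list lay above 0, and of its 17 tested genes 8 lay below 0 and 9 above. DMBX1 had 76 and 124 counts against 137 and 157 (log2 fold change 0.66, with an adjusted p of 0.552 in edgeR). ALDH1A3 had 116 and 107 counts against 177 and 111 (log2 fold change 0.44, with an adjusted p of 0.649 in edgeR). The 5 neuron markers had a summed level of 109 and 134 CPM in the WT-labelled libraries and 168 and 211 CPM in the KO-labelled ones. None of the 5 was called in edgeR, and 3 were higher at an unadjusted p under 0.05. DESeq2 called 2 higher, beside 149 of all 17564 tested genes. SYT1, a synaptic vesicle protein, made up most of this sum and had a log2 fold change of 0.54 (with an adjusted p of 0.519 in edgeR). STMN2, a neuronal tubulin-binding protein, had 115 and 147 counts against 675 and 203 (log2 fold change 1.78, with an adjusted p of 0.424 in edgeR). DCX, a marker of migrating neurons, had 99 and 179 counts against 82 and 94 (log2 fold change -0.55, with an adjusted p of 0.638 in edgeR).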
